A study of Homo sapiens with 24 samples.

Results

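Cholesterol is made from acetyl-CoA in a long cytosolic and endoplasmic reticulum pathway, and most genes of that pathway share a transcriptional control. The genes described here are 32 listed genes of sterol synthesis, sterol transfer and their control, together with fatty acid and glycerolipid enzymes that the same transcription factors are known to drive; all 32 were found by symbol among the 60641 symbols that every library shares. They fall into 7 genes of the mevalonate arm, 11 genes of the sterol arm, 5 regulators, 1 sterol transfer gene and 8 fatty acid and glycerolipid genes. The libraries are rRNA-depleted total RNA from A549, a human lung adenocarcinoma line, and HCT116, a human colorectal carcinoma line. CRISPR/Cas9 removed the DNA binding domain (DBD) of a noncoding transcript named MSTRG.2513.6 or MSTRG.4401.1 in either line, or of MSTRG.34636.7 in HCT116, and each such group (DBD KO) was compared with unedited cells of its line (WT). The targeted transcripts themselves were not analysed here. The 8 groups hold 3 libraries each. They are A549 WT B (libraries S20, S21 and S22), A549 MSTRG.2513.6 KO (S17, S18 and S19), A549 MSTRG.4401.1 KO (S23, S24 and S25), HCT116 WT B (S12, S13 and S14), HCT116 MSTRG.2513.6 KO (S8, S9 and S11), HCT116 MSTRG.4401.1 KO (S10, S15 and S16), HCT116 WT A (1A, 2A and 3A) and HCT116 MSTRG.34636.7 KO (1A, 2A and 3A). The sources used here do not say whether libraries of a group came from separate cultures or clones, so p-values measure only the spread between these libraries, which may be technical.

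In cells, low sterol lets the escort protein SCAP carry the precursors of SREBP2 (gene SREBF2) and SREBP1 (gene SREBF1) from the endoplasmic reticulum to the Golgi, where proteases release the active factors. INSIG1 and INSIG2 hold SCAP back when sterol is plentiful. SREBP2 is known mainly for driving sterol synthesis and uptake genes, and SREBP1 for fatty acid synthesis genes, and INSIG1 is itself a target. Oxysterols act on another factor, LXR, which raises sterol export genes and SREBF1.

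Total counts ran from 25799359 to 102261808 per library, and the lowest count of any of the 32 genes in any library was 252. Levels are given as CPM, a count scaled by the total of its library. Cell identity was checked with lineage markers. KRT7, an epithelial keratin, lay between 1066 and 2441 CPM in the A549 libraries and between 2.6 and 82.5 CPM in HCT116 with S8 and S9 set aside. EPCAM, an epithelial adhesion molecule, lay between 1.3 and 4.0 CPM in A549 and between 111 and 247 CPM in those HCT116 libraries. The libraries labelled S8 and S9 in the HCT116 MSTRG.2513.6 KO group went against that label, with 1908 and 1777 CPM of KRT7 and with 0.9 and 1.3 CPM of EPCAM, whereas S11 held 10.5 CPM of KRT7 and 111 CPM of EPCAM. The defining lung genes NKX2-1 and SFTPB stayed at or below 2.6 CPM in A549, and the intestinal genes CDX1 and LGR5 at or below 0.3 CPM in HCT116. Levels of the other listed lineage markers, TFPI2, HTRA1, CDX2, VIL1 and KRT20, are not given here. Among leukocyte and fibroblast markers, PTPRC, CD3E, COL1A2 and DCN stayed at or below 0.3 CPM and CD68 at or below 2.3 CPM in every library, and COL1A1 lay between 7.7 and 73.3 CPM. Mitochondrially encoded genes took 3.5%, 7.87% and 6.93% of counts in the A549 MSTRG.4401.1 KO libraries and between 1.39% and 3.24% in the other 21 libraries.

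**Figure D1:**
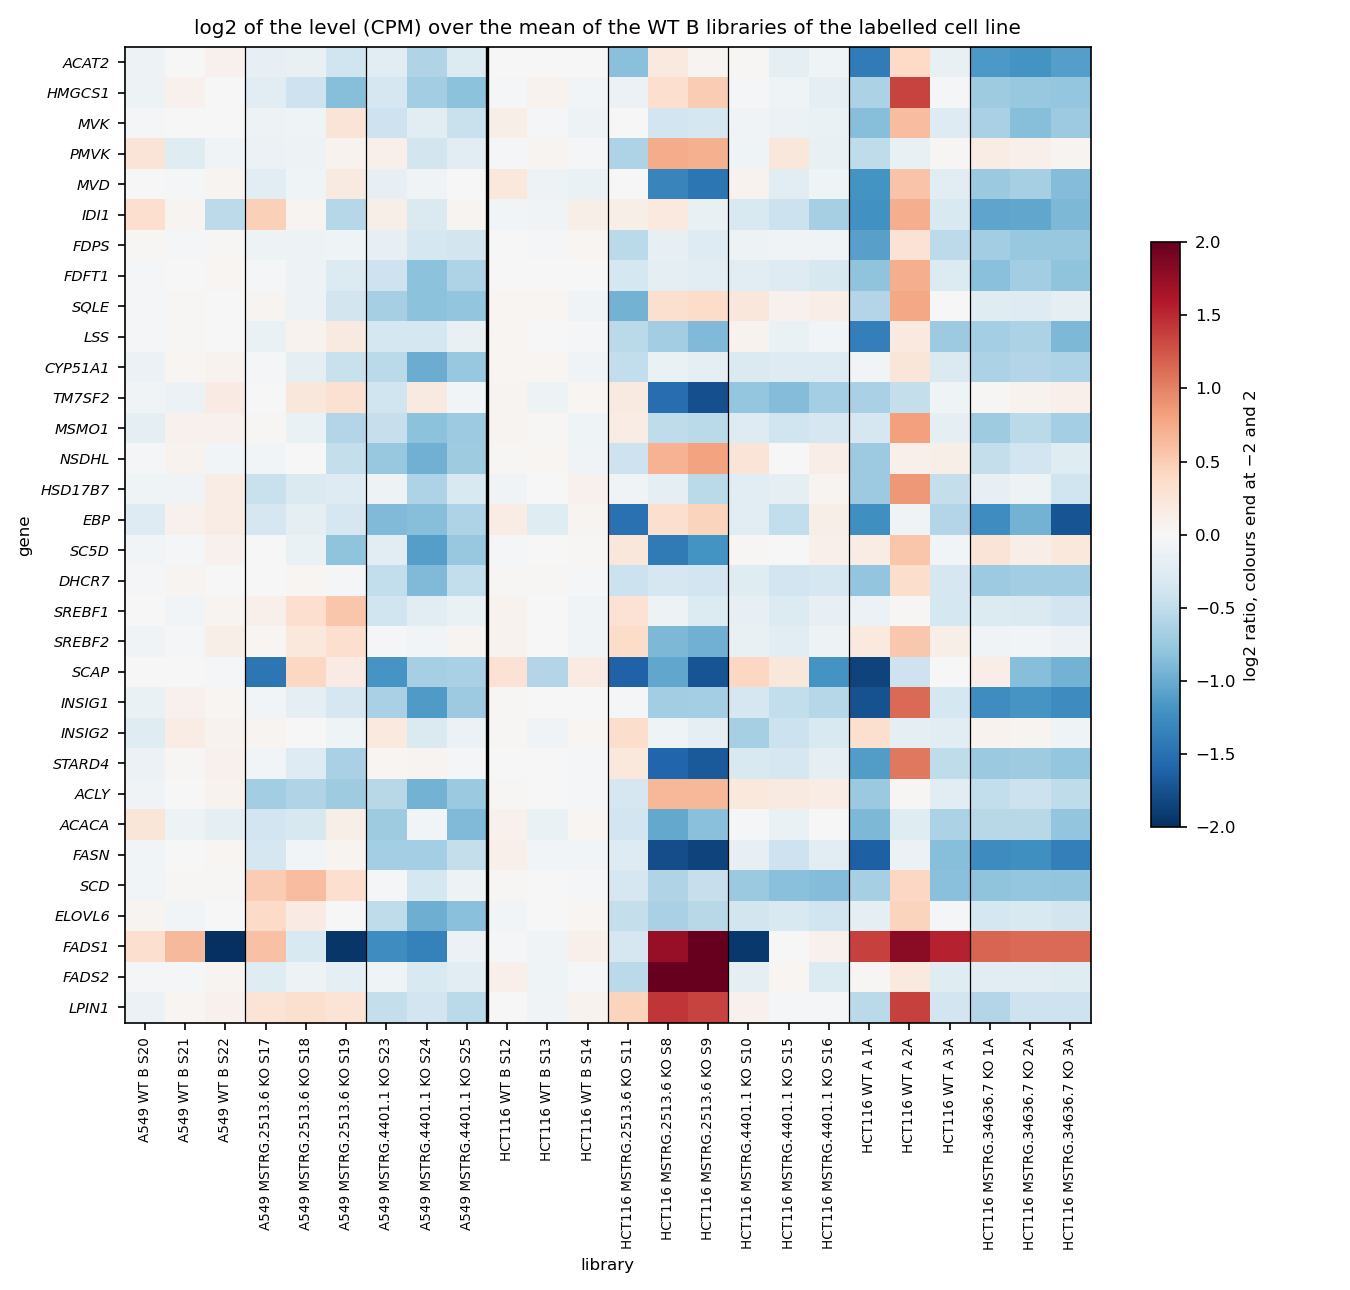
Each cell is the log2 ratio of a gene's level (CPM) in 1 library over the mean of the 3 WT B libraries of the labelled cell line, with genes as rows and the 24 libraries as columns grouped by label. Most rows are blue in the A549 MSTRG.4401.1 KO columns, S8 and S9 differ from S11 in their own group, and the HCT116 WT A library 2A is red for many genes where 1A is blue.

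Per kilobase of exon, ACLY, SCD and FASN were the most abundant of the 32 genes in both lines. Exon length here joined all annotated exons of a gene, whichever transcripts the cells made. In A549 WT B, ACLY, which makes cytosolic acetyl-CoA from citrate, reached 264 ± 13 CPM per kb (SD, n = 3). SCD, the desaturase that makes oleate, reached 195 ± 6.43, and FASN, the fatty acid synthase, 135 ± 3.89 CPM per kb. In HCT116 WT B the order of these genes was SCD at 413 ± 8.24, FASN at 393 ± 26.6 and ACLY at 99.8 ± 2.26 CPM per kb, and the ranges of SCD and FASN overlapped. Other fatty acid and glycerolipid genes were spread over a wide range. FADS2 reached 44.6 ± 1.58 CPM per kb in A549 WT B, and ACACA reached 36.2 ± 2.95 CPM per kb in HCT116 WT B. FADS2 at 1.95 ± 0.135 and LPIN1 at 2.72 ± 0.12 CPM per kb were the lowest of the 32 per kb in HCT116 WT B. Their joined exons are long, at 10553 and 11861 bases. By CPM, PMVK (mean 14.7) and HSD17B7 (mean 16.1) were lower than both in that group. The sterol pathway enzymes sat below ACLY, SCD and FASN, between 2.09 CPM per kb for SC5D and 38.8 CPM per kb for EBP in A549 WT B. Of the regulators, SREBF1 was the highest per kb in both lines, at 42.3 ± 1.64 in A549 WT B and 55.7 ± 2.75 CPM per kb in HCT116 WT B, followed by SREBF2 at 17.7 ± 1.25 and 36.4 ± 1.61. INSIG1 stood above INSIG2, at 15.8 ± 1.25 against 4.15 ± 0.567 CPM per kb in A549 WT B and at 23.3 ± 0.266 against 4.5 ± 0.186 CPM per kb in HCT116 WT B.

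RefSeq promoters of the build GRCh38.p14, taken as 250 bases before to 50 bases after a start site, were at hand for 28 of the 32 genes, with 40 start sites in all. FDFT1, SQLE, FASN and ACAT2 had no entry. The motif CCAAT, the box that NF-Y binds beside sterol elements, was found on either strand in 24 of the 40 promoters (60%) and in 34.6% of all 35116 promoters. The Sp1 box GGGCGG was found in 35 of the 40 (87.5%) against 45.0% of all promoters, and the E-box CACGTG in 5 of the 40 (12.5%) against 7.26%. The sterol element TCACNCCAC was found in 1 of the 40 promoters, that of SREBF2, and in 1.13% of all promoters; other sterol element sequences were not searched. CCAAT matches on opposite strands may overlap, as a pair does in NSDHL, and a match describes letters and not a binding site. The stretches before the start site are printed here for SREBF2, the gene with the sterol element, for MVK, MSMO1 and NSDHL, the genes with 4 or more CCAAT boxes in a promoter, and for HMGCS1 and INSIG1, on which results below turn. Only bases outside the exons of protein-coding genes are shown, 5′ to 3′ on the gene's strand, with the sterol element and CCAAT (or ATTGG on the other strand) in capitals.
SREBF2, chr22:41832855-41833104, plus strand: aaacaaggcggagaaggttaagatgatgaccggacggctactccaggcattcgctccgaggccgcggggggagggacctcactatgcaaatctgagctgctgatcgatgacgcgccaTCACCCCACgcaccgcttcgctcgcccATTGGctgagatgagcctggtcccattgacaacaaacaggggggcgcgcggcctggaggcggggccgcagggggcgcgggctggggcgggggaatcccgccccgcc
MVK, chr12:109573581-109573792, plus strand: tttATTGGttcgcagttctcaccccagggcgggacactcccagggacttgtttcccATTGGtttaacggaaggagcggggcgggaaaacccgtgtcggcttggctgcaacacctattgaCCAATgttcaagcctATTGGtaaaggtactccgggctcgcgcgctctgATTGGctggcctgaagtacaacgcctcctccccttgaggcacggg
MSMO1, chr4:165327419-165327666, plus strand: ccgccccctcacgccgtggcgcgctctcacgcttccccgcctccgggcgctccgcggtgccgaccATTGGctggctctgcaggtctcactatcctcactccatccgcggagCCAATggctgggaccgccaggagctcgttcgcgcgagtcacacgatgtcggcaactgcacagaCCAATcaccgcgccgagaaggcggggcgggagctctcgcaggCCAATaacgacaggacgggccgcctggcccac
NSDHL, chrX:152830813-152830966, plus strand: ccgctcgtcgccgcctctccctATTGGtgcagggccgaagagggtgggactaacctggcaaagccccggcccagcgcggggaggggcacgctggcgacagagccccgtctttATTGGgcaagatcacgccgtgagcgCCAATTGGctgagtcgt
HMGCS1, chr5:43313513-43313662, minus strand: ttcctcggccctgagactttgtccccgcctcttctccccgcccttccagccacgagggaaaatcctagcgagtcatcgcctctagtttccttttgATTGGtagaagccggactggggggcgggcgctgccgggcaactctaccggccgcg
INSIG1, chr7:155297628-155297775, plus strand: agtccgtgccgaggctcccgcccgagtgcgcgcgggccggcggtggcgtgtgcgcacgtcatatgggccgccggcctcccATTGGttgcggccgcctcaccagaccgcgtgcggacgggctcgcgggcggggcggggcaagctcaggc
In the SREBF2 stretch the sterol element starts 133 bases before the start site and is followed by a CCAAT box on the other strand at 106 bases before it. MVK holds 5 boxes in the stretch shown, MSMO1 holds 4 and NSDHL holds 4, of which a pair overlaps. The stretches shown for HMGCS1 and INSIG1 each hold 1. Over the whole promoter, part of which is not shown, NSDHL holds 5 and HMGCS1 holds 2.

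Sterol pathway transcripts were lower in A549 cells without the MSTRG.4401.1 DBD. At a false discovery rate (FDR, the Benjamini-Hochberg adjusted p of edgeR's quasi-likelihood test over all genes) below 0.1, 23 of the 32 genes fell and 0 rose. Of all 24979 genes tested, 22.4% fell and 21.3% rose at that FDR. The median log2(fold change) was −0.57 over the 32 genes and 0.12 over all genes tested. None of the 32 also passed |log2(fold change)| > 1, a size that 4.32% of all genes passed downward and 11.1% upward.

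INSIG1, which retains SCAP in the endoplasmic reticulum, gave 52.7, 61.5 and 59.1 CPM in A549 WT B and 36.7, 26.2 and 34.9 CPM in the A549 MSTRG.4401.1 KO. The groups did not overlap, and the log2(fold change) was −0.90 ± 0.14 (SE, FDR = 0.00289, edgeR). NSDHL, a dehydrogenase of C4 demethylation, gave 25.7, 27.6 and 25.3 CPM in WT B and 15.6, 13.5 and 15.9 CPM in the KO, again with a gap, at −0.89 ± 0.13 (FDR = 0.00246, edgeR). EBP, the sterol isomerase, fell from 57.3, 72.6 and 76 CPM to 37.3, 37.9 and 44.6 CPM, a log2(fold change) of −0.85 ± 0.13 (FDR = 0.00274, edgeR). SCAP, the escort protein, gave 38.5, 38.5 and 37.7 CPM in WT B and 16.9, 24 and 24.4 CPM in the KO, at −0.89 ± 0.17 (FDR = 0.00601, edgeR); its level was unsteady in other groups, as described further on.

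By role, 10 of the 11 sterol arm genes fell, with a median log2(fold change) of −0.73, and the exception was TM7SF2, a C14 sterol reductase, at −0.15. In the mevalonate arm 4 of 7 fell. These were HMGCS1 (−0.68), the HMG-CoA synthase, ACAT2 (−0.43), MVK (−0.44) and FDPS (−0.37). PMVK, MVD and IDI1 lay between −0.23 and −0.12 and did not pass. Of the fatty acid and glycerolipid genes 6 of 8 fell, among them ACLY (−0.82), ELOVL6 (−0.84), FASN (−0.68) and the phosphatidate phosphatase LPIN1 (−0.54). Of the regulators, SREBF1 gave 348, 335 and 362 CPM in WT B and 264, 302 and 318 CPM in the KO, with no overlap and a log2(fold change) of −0.32 ± 0.12 (FDR = 0.0769, edgeR), a call lost without S20, S21, S22 or S23. SREBF2 gave 136, 138 and 154 CPM against 141, 137 and 148 CPM, and the groups overlapped (−0.08 ± 0.10, FDR = 0.532, edgeR). INSIG2 gave 13.9, 18.2 and 17.2 CPM against 18.7, 13.4 and 15.1 CPM, also overlapping (−0.14 ± 0.16, FDR = 0.529, edgeR).

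Summed over the mevalonate and sterol arms, the 18 synthesis genes gave 1122 to 1179 CPM in A549 WT B and 739 to 887 CPM in the A549 MSTRG.4401.1 KO. Library S24 was the lowest KO library for 19 of the 32 genes, and it also had the highest mitochondrial share (7.87%); the part of that share in the result was not tested. Total counts were 25799359 to 33205007 in the KO and 41563496 to 59466012 in WT B. In bulk RNA, fewer cells with a transcript and less of it per cell cannot be told apart. The calls depend on scaling. With upper-quartile normalization 15 genes fell and 0 rose, where 44.7% of all genes passed in either direction. The medians became −0.40 for the 32 genes and 0.28 for all genes tested. The 8 genes that no longer passed were ACACA, ACAT2, FADS2, FDPS, HSD17B7, LSS, MVK and SREBF1.

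**Figure D2:**
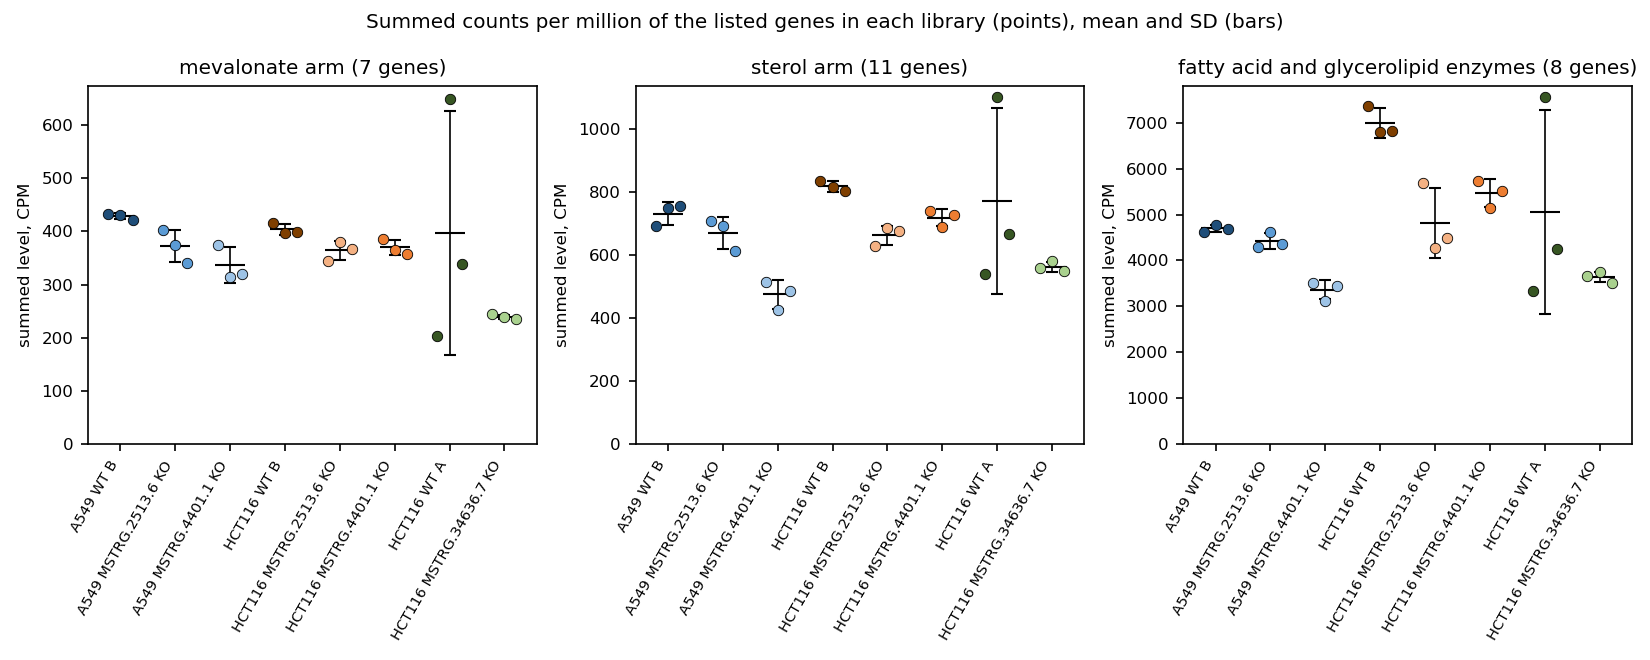
Points give the summed CPM of the mevalonate arm (7 genes), the sterol arm (11 genes) and the fatty acid and glycerolipid genes (8 genes) in each library, and bars give the mean and SD of 3 libraries. The sterol arm of A549 MSTRG.4401.1 KO (424 to 512 CPM) lies below that of A549 WT B (689 to 755 CPM), and HCT116 WT A spreads more than any other group in all panels.

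**Figure D3:**
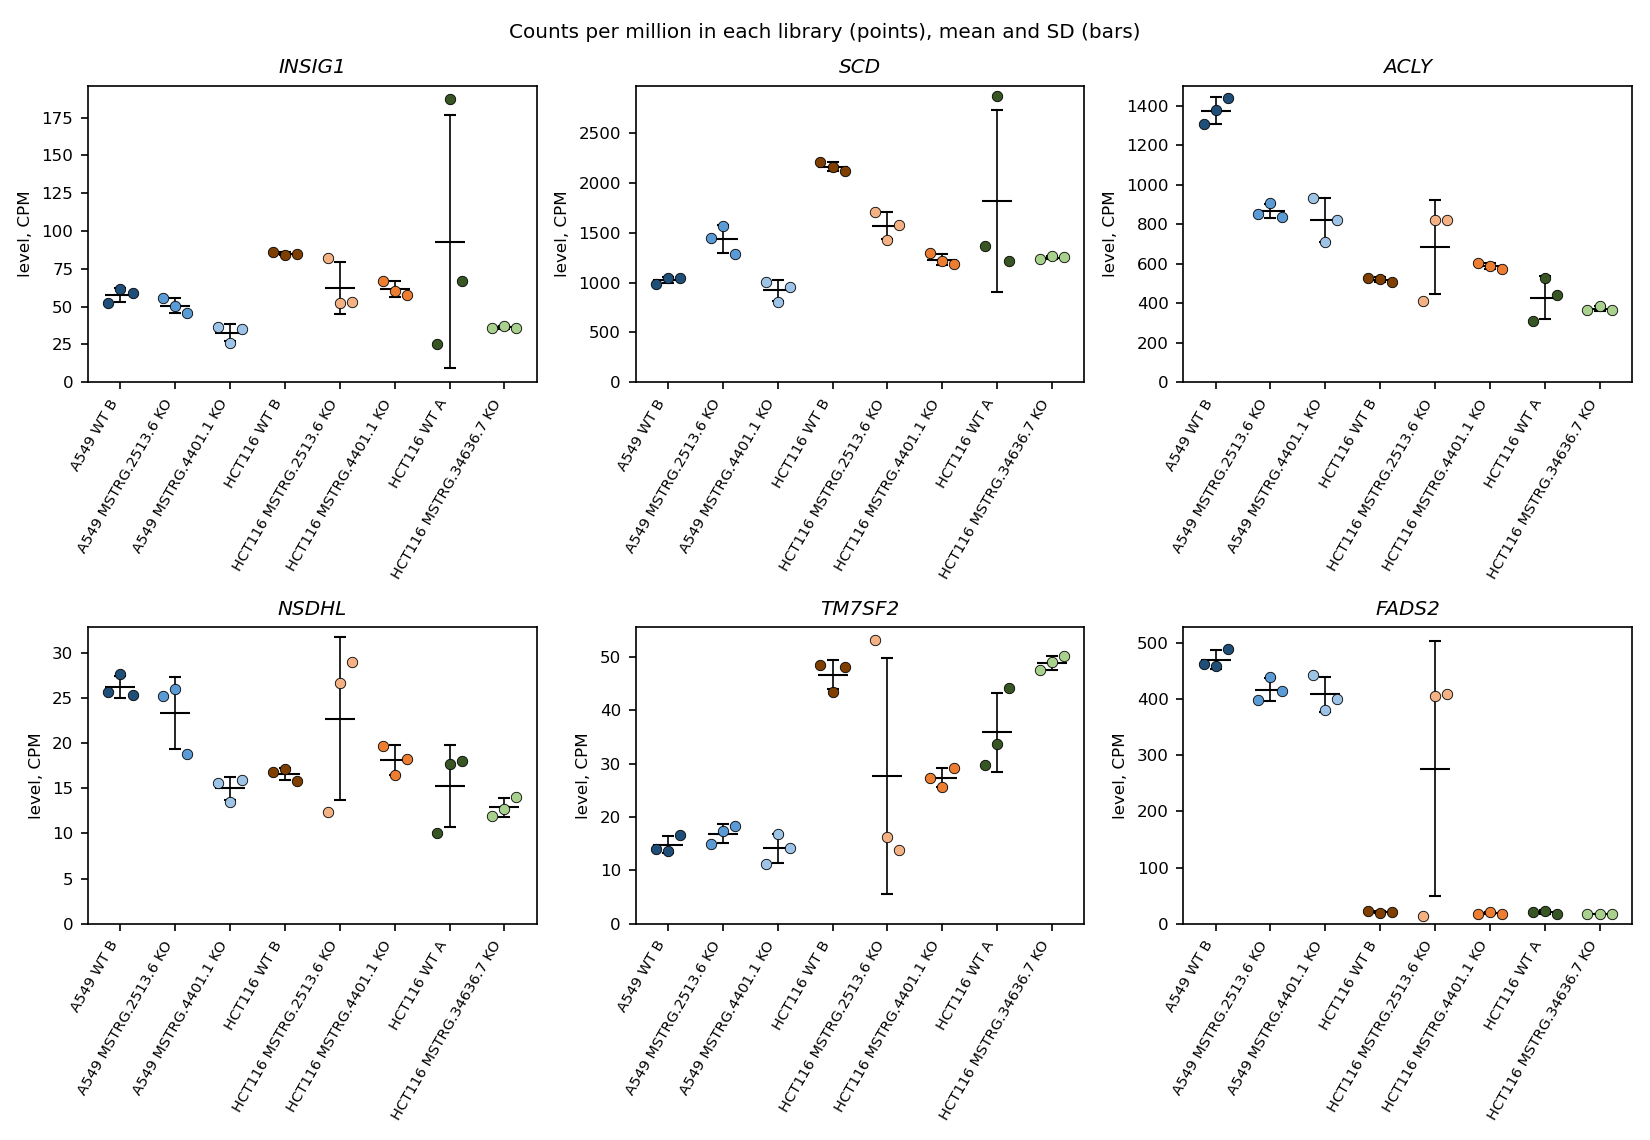
Points give the level (CPM) of INSIG1, SCD, ACLY, NSDHL, TM7SF2 and FADS2 in each library, and bars give the mean and SD of 3 libraries. INSIG1 falls in both MSTRG.4401.1 KO groups, SCD and TM7SF2 fall in the HCT116 one, ACLY is lower in both A549 KO groups, and FADS2 separates S8 and S9 (405 and 409 CPM) from S11 (14.3 CPM).

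In HCT116 cells without the same DBD, fewer of the genes were lower. In HCT116 MSTRG.4401.1 KO against HCT116 WT B, 14 of the 32 genes fell and 1 rose at FDR below 0.1, while 8.72% of all genes tested fell and 7.57% rose. The median log2(fold change) was −0.15 over the 32 genes and 0.00 over all genes. None of the 32 passed |log2(fold change)| > 1, which 1.62% of all genes passed downward and 0.996% upward.

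SCD gave 2210, 2159 and 2124 CPM in HCT116 WT B and 1294, 1214 and 1186 CPM in the KO, far apart relative to the spread within either group, with a log2(fold change) of −0.83 ± 0.05 (FDR = 0.000175, edgeR). TM7SF2 fell from 48.5, 43.5 and 48.1 CPM to 27.3, 25.6 and 29.2 CPM (−0.78 ± 0.06, FDR = 0.000463, edgeR). INSIG1 fell from 86, 84.1 and 84.6 CPM to 67.2, 60.2 and 57.4 CPM (−0.47 ± 0.07, FDR = 0.0061, edgeR). INSIG2, the second retention protein, fell from 18.1, 17 and 18.3 CPM to 11.3, 13.2 and 14.5 CPM (−0.47 ± 0.10, FDR = 0.0236, edgeR). In each of these genes the 3 KO libraries lay below the 3 WT B libraries.

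ACLY was the gene that rose, from 530, 523 and 507 CPM to 602, 589 and 576 CPM (0.17 ± 0.05, FDR = 0.0561, edgeR). Its call was lost without S10, S12, S13, S14 or S15. SREBF1 gave 483, 453 and 438 CPM in WT B and 407, 380 and 408 CPM in the KO (−0.21 ± 0.05, FDR = 0.0322, edgeR), a call lost without S12 or S13. SREBF2 gave 307, 292 and 281 CPM against 266, 252 and 274 CPM (−0.17 ± 0.05, FDR = 0.0644, edgeR), a call lost without S12, S13, S15 or S16. SCAP spread widely within both groups, from 55.9 to 102 CPM in WT B and from 36.6 to 112 CPM in the KO (−0.03 ± 0.40, FDR = 0.974, edgeR). By role, 1 of 7 mevalonate arm genes fell (IDI1, the isopentenyl diphosphate isomerase, −0.47), as did 5 of 11 sterol arm genes, 4 of 5 regulators, STARD4 (−0.29) and 3 of 8 fatty acid and glycerolipid genes.

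These HCT116 calls depended on which libraries shared the fit. When all HCT116 libraries shared 1 fit in edgeR, 0 of the 32 genes passed (4 had an unadjusted p below 0.05) and 0.11% of all genes did. Without S8 and S9 in that fit, TM7SF2 alone passed, where 2.74% of all genes did. The SCD log2(fold change) was −0.83 in both of those fits. With HCT116 WT A as the control, 1 gene rose (ACACA) and 2 fell (FADS1 and SREBF2), and 18.9% of all genes tested passed.

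The KO effects differed between the lines for 18 of the 32 genes by the interaction term of a model over the 4 groups. The effect was more negative in A549 for 16 genes and more negative in HCT116 for 2, where 15.4% and 11.6% of all genes differed in those directions. NSDHL differed by −1.03 ± 0.17 on the log2 scale (FDR = 0.00148, edgeR), ACLY by −1.02 ± 0.14 (FDR = 0.0006, edgeR), SQLE by −1.01 ± 0.11 (FDR = 0.000126, edgeR) and the desaturase SC5D by −0.78 ± 0.23 (FDR = 0.0349, edgeR). SQLE, the squalene epoxidase, gave 79.6, 79.5 and 74 CPM in HCT116 WT B and 90.6, 82.5 and 85.4 CPM in the HCT116 KO, and fell from 101, 106 and 105 CPM to 65.8, 59.3 and 60.2 CPM in A549. TM7SF2 (0.60 ± 0.18, FDR = 0.0345, edgeR) and SCD (0.56 ± 0.15, FDR = 0.0195, edgeR) were the genes with the more negative effect in HCT116. SCD gave 986, 1047 and 1042 CPM in A549 WT B and 1004, 805 and 958 CPM in the A549 KO, where it did not pass. Among the regulators, the INSIG1 difference was −0.46 ± 0.18 (FDR = 0.0942, edgeR), and those of SREBF1 (−0.14 ± 0.13, FDR = 0.522), SREBF2 (0.05 ± 0.11, FDR = 0.835), SCAP (−0.90 ± 0.48, FDR = 0.223) and INSIG2 (0.30 ± 0.20, FDR = 0.313) did not pass in edgeR. With upper-quartile normalization or library totals alone, 10 genes in place of 16 were more negative in A549. In both directions together 27.8% and 25.5% of all genes passed then, against 26.9% in the main fit. The INSIG1 difference no longer passed with either scaling, as was also so without S10, S12, S13, S14, S15, S20 or S21. Without S10, S14 or S20, 10 genes were more negative in A549, where 21.3%, 20.6% and 23% of all genes passed in either direction.

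The genes that fell in both lines were CYP51A1, DHCR7, ELOVL6, FASN, FDFT1, INSIG1, MSMO1 and SREBF1, which are 8 genes, 34.8% of the 23 that fell in A549 and 57.1% of the 14 that fell in HCT116. Of all 22555 genes tested in both comparisons 3.8% fell in both lines, which is 16.3% of those that fell in A549 and 40.5% of those that fell in HCT116. In A549, 23 of the 32 genes fell but 5249 of the 22555, and in HCT116 14 of the 32 but 2112 of the 22555. The shares therefore start from unlike baselines. Whether the overlap of the 32 genes departs from what these counts alone would give was not tested. These comparisons share no library. In HCT116 the FASN call was lost without S12, S13, S15 or S16. CYP51A1 is the lanosterol demethylase, MSMO1 the C4 sterol oxidase, DHCR7 the last reductase of the pathway and FDFT1 the squalene synthase.

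**Figure D4:**
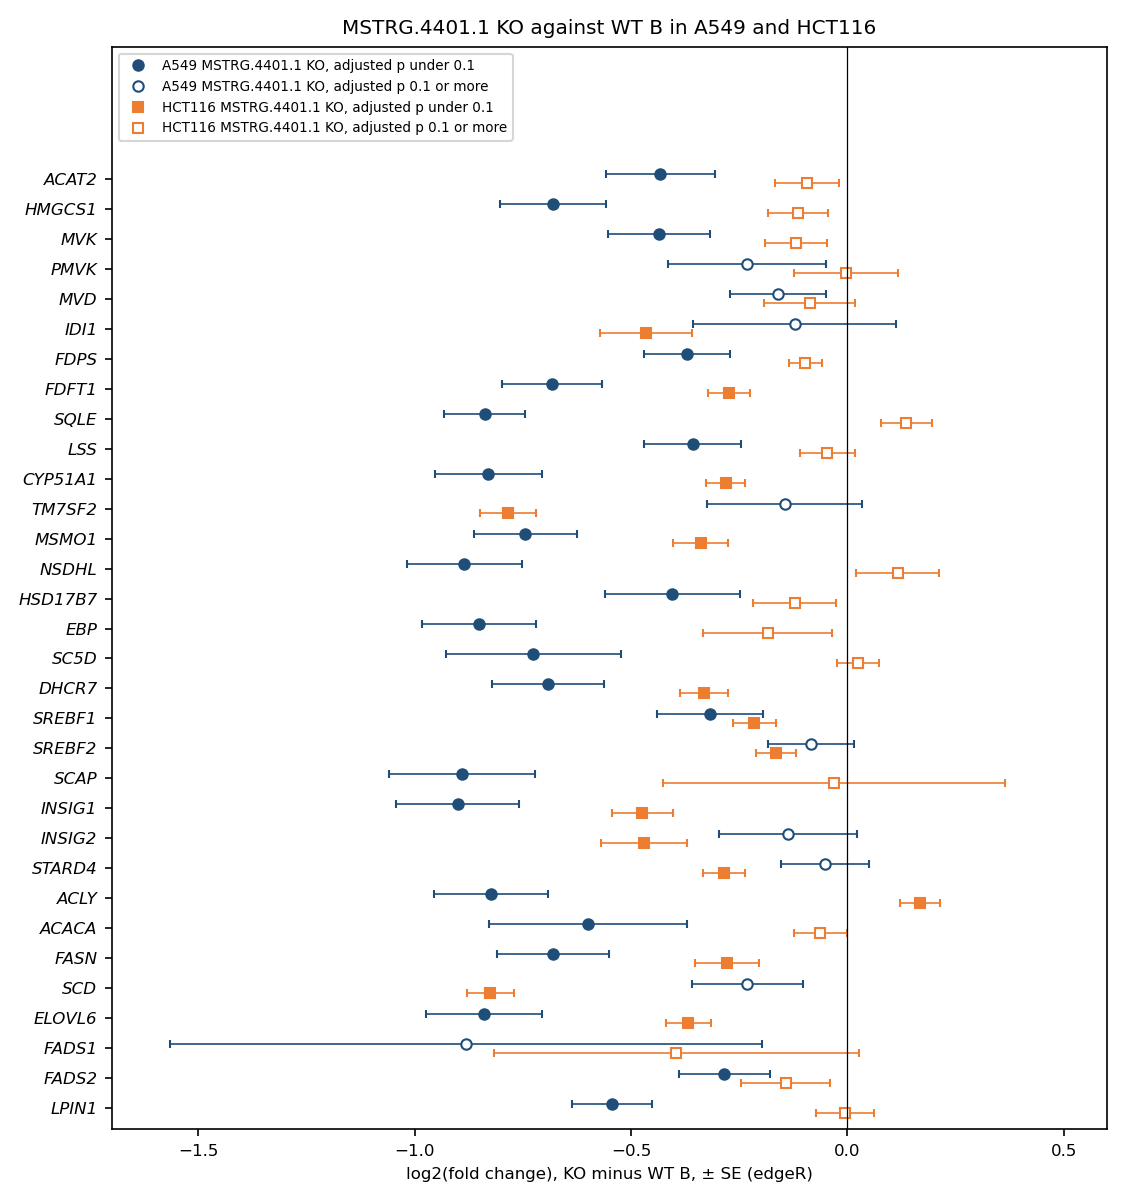
For each of the 32 genes the horizontal axis gives the log2(fold change) of MSTRG.4401.1 KO against WT B with its SE from edgeR, circles for A549 and squares for HCT116, filled where the FDR is below 0.1. Filled circles lie between −0.90 and −0.28, whereas the filled squares farthest to the left are SCD (−0.83) and TM7SF2 (−0.78), whose circles are open.

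In A549 MSTRG.2513.6 KO against A549 WT B, 1 of the 32 genes rose and 1 fell, where 2.77% of all genes rose and 3.19% fell. None of the 32 passed |log2(fold change)| > 1, against 1.13% of all genes upward and 1.79% downward. The median log2(fold change) was −0.11 over the 32 genes and −0.03 over all. ACLY fell from 1306, 1380 and 1441 CPM to 853, 906 and 839 CPM (−0.67 ± 0.10, FDR = 0.0119, edgeR), with a wide gap between the groups, and it passed without any 1 library. SCD rose from 986, 1047 and 1042 CPM to 1453, 1570 and 1288 CPM (0.49 ± 0.12, FDR = 0.0749, edgeR). The groups did not overlap, but the call was lost when S17, S18, S20, S21 or S22 was left out.

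The regulators did not pass in A549 MSTRG.2513.6 KO. SREBF1 gave 373, 441 and 511 CPM, all above the 335 to 362 CPM of WT B (0.34 ± 0.12, FDR = 0.191, edgeR). SREBF2 gave 146, 166 and 179 CPM and overlapped WT B (0.20 ± 0.09, FDR = 0.352, edgeR). INSIG1 gave 55.8, 50.3 and 46 CPM (−0.18 ± 0.12, FDR = 0.505, edgeR) and INSIG2 gave 17.1, 16.3 and 15.5 CPM (−0.00 ± 0.14, FDR = 0.995, edgeR). SCAP ran from 14 CPM in S17 to 51 CPM in S18 (−0.10 ± 0.39, FDR = 0.93, edgeR).

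Set against each other, the A549 KO groups differed in 17 of the 32 genes, all higher in the MSTRG.2513.6 KO, where 19.8% of all genes were higher and 17.4% lower. The 1 gene that also passed |log2(fold change)| > 1 was ELOVL6, the elongase of palmitate, where 5.75% of all genes were higher and 10.9% lower by that size. ELOVL6 gave 62.5, 53.8 and 47.8 CPM in the MSTRG.2513.6 KO and 33.9, 24.5 and 27.1 CPM in the MSTRG.4401.1 KO (1.09 ± 0.18, FDR = 0.0033, edgeR), and this size was no longer reached with upper-quartile normalization, library totals alone, or without S17 or S24. LPIN1 gave 82.8, 85 and 82.3 CPM against 48.9, 52.3 and 46.8 CPM (0.90 ± 0.12, FDR = 0.0011, edgeR). NSDHL (0.78 ± 0.19, FDR = 0.017) and SCD (0.78 ± 0.17, FDR = 0.0112) followed in edgeR. Among the regulators, SREBF1 (0.72 ± 0.16, FDR = 0.0116), INSIG1 (0.78 ± 0.18, FDR = 0.0134) and SREBF2 (0.34 ± 0.13, FDR = 0.0779) were higher in the MSTRG.2513.6 KO by edgeR, with the SREBF2 call lost without S18, S19, S23 or S24, whereas SCAP (0.85 ± 0.40, FDR = 0.143) and INSIG2 (0.20 ± 0.18, FDR = 0.429) did not pass. ACLY, lower than A549 WT B in both KO groups, differed between them by 0.22, which did not pass; both KO comparisons use the same WT B libraries.

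For these genes the libraries labelled as HCT116 MSTRG.2513.6 KO were not uniform. Library S8 was nearer to the mean of A549 MSTRG.2513.6 KO than to that of HCT116 WT B for 31 of the 32 genes and S9 for 30, while S11 was so for 9. FADS2, the delta-6 desaturase, shows the split most clearly, with 405 CPM in S8, 409 in S9 and 14.3 in S11. The A549 libraries with the same DBD removed spanned 398 to 439 CPM, whereas HCT116 WT B spanned 19.4 to 22.2 CPM. ACLY gave 824 and 822 CPM in S8 and S9 and 411 CPM in S11, and STARD4, a sterol carrier, gave 20.9 and 19.6 CPM against 72.7 CPM.

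As labelled, 0 of the 32 genes rose and 0 fell against HCT116 WT B by edgeR, where 0.792% of all genes rose and 0.629% fell; 8 of the 32 and 20.7% of all genes had an unadjusted p below 0.05. DESeq2 found 3 higher and 4 lower, where 18.6% of all genes passed with it. By size and FDR together, 0.66% of all genes were called higher and 0.273% lower, and none of the 32. The regulators gave −0.28 ± 0.12 for INSIG1 (FDR = 0.264), 0.22 ± 0.15 for INSIG2 (FDR = 0.46), 0.17 ± 0.12 for SREBF1 (FDR = 0.472), −0.24 ± 0.27 for SREBF2 (FDR = 0.66) and −1.19 ± 0.35 for SCAP (FDR = 0.152) in edgeR. Without S11, the remaining S8 and S9 differed from HCT116 WT B in 26 genes, 13 up and 13 down, where 62.6% of all genes passed.

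With S11 alone as the KO, which assumes that this library varies like the WT B ones, 3 genes were higher (LPIN1, SREBF1 and SREBF2) and 18 lower, where 28.6% of all genes passed. S11 held 379 CPM of SREBF2 and 558 CPM of SREBF1, above the 281 to 307 and 438 to 483 CPM of HCT116 WT B. It held 40.5 CPM of SQLE, 18.5 CPM of EBP and 16.1 CPM of ACAT2, below the 74 to 79.6, 43.9 to 57.5 and 28.4 to 29 CPM of WT B. INSIG1 in S11 (82.5 CPM) lay just under the WT B range of 84.1 to 86 CPM. SREBF2 turned from −0.24 as labelled to 0.28 with S11 alone.

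The comparison of HCT116 MSTRG.34636.7 KO with HCT116 WT A turned on the WT A libraries. By edgeR 0 of the 32 genes rose and 0 fell, where 1.18% of all genes rose and 0.972% fell, and none were called with |log2(fold change)| > 1, against 0.729% and 0.607% of all genes. An unadjusted p below 0.05 was found for 12 of the 32, 11 of them lower, and for 15% of all genes. DESeq2 found 4 lower (CYP51A1, FADS1, HMGCS1 and MSMO1), where 6.68% of all genes passed with it. The median log2(fold change) was −0.44 over the 32 genes and −0.02 over all genes tested. The median over the 32 became −0.15 without WT A library 2A, −0.46 without 3A and −0.63 without 1A.

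The WT A libraries differed widely from each other in these genes. INSIG1 gave 25.4 CPM in library 1A, 187 CPM in 2A and 66.7 CPM in 3A, against 36, 37.3 and 35.6 CPM in the KO. HMGCS1 gave 52.7, 208 and 80.8 CPM in WT A and 50, 48.2 and 48 CPM in the KO. STARD4 gave 29.2, 132 and 44.1 CPM, and IDI1 gave 21.7, 83.2 and 40.8 CPM. Library 2A was the highest of the 3 for 27 of the 32 genes and 1A the lowest for 25, counts that were not made over all genes. Against the mean of HCT116 WT B, the median log2 ratio of the 32 genes was −0.72 in 1A, 0.40 in 2A and −0.25 in 3A. Over all 17377 genes at a mean of at least 1 CPM in both groups it was −0.02, 0.01 and −0.03.

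The ratio of the highest to the lowest WT A library had a median of 2.3 over the 32 genes and 1.47 over all 18427 genes at a mean of at least 1 CPM, and it passed 2 for 19 of the 32 genes and for 19.5% of those genes. The next highest median over the 32 genes was 1.62 in HCT116 MSTRG.2513.6 KO as labelled, where the ratio passed 2 for 14 genes. The medians were 1.26 in A549 MSTRG.2513.6 KO, 1.30 in A549 MSTRG.4401.1 KO and 1.12 in A549 WT B. In HCT116 they were 1.08 in MSTRG.34636.7 KO, 1.09 in WT B and 1.11 in MSTRG.4401.1 KO. The 18 synthesis genes together gave 741, 1751 and 1005 CPM in 1A, 2A and 3A, and 784 to 817 CPM in the MSTRG.34636.7 KO. Library 2A had the smallest total of the 3 (49084111 counts) and the highest mitochondrial share (3.24%, against 2.32% and 2.15%); their part in the result was not tested.

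**Figure D5:**
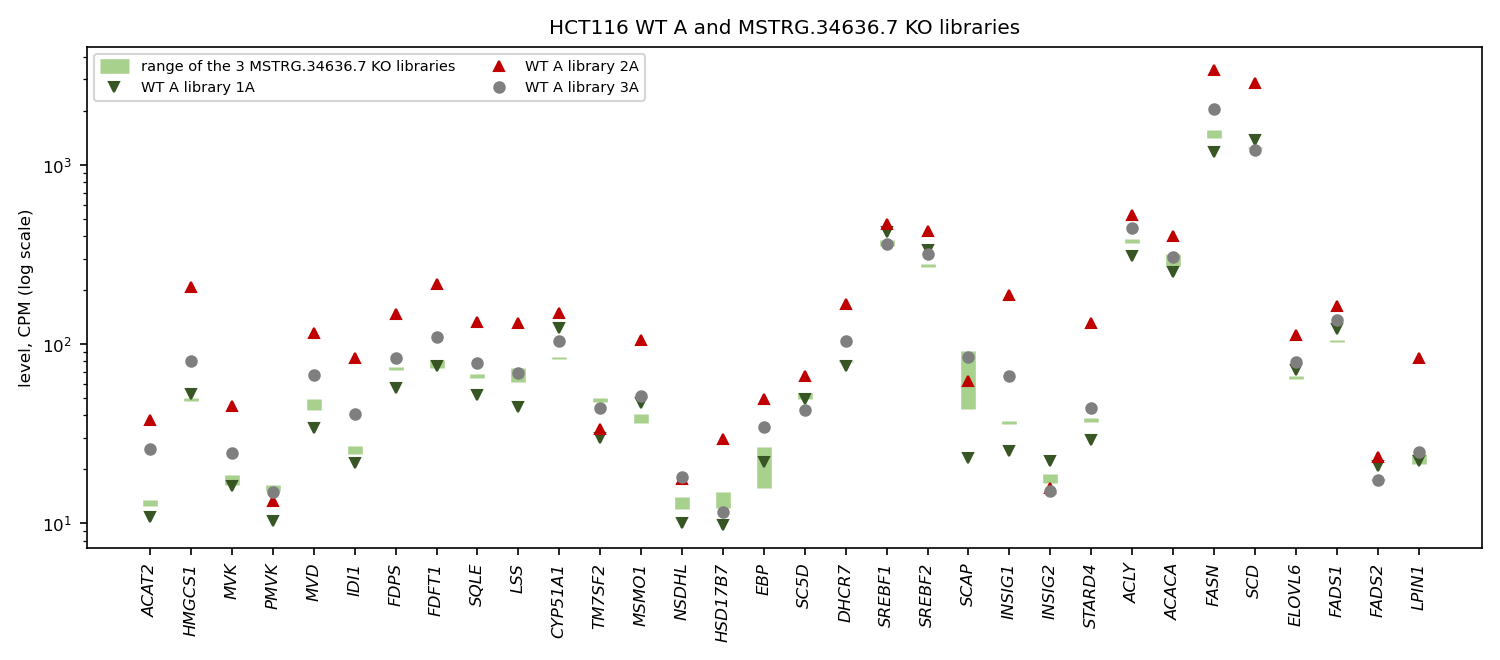
For each of the 32 genes the vertical axis (log scale) gives the level in CPM of HCT116 WT A libraries 1A, 2A and 3A as symbols, and green bars span the 3 MSTRG.34636.7 KO libraries. The 2A symbol is the highest for 27 genes, and for 19 genes the whole KO bar lies inside the range of the WT A libraries. Neither count was made over all genes.

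For 19 of the 32 genes the KO libraries lay wholly within the range of the WT A libraries. For HMGCS1, CYP51A1, MSMO1, SREBF2, ELOVL6 and FADS1 all KO libraries lay below all WT A libraries, and for PMVK and TM7SF2 above them. The same counts were not made over all genes, so they cannot be read as particular to the 32 genes. The INSIG1 log2(fold change) was −1.33 ± 0.56 (FDR = 0.316, edgeR). It became −0.40 without 2A and −1.78 (FDR = 0.0784) without 1A. Without 1A, 7 genes fell (ACAT2, FADS1, FDFT1, HMGCS1, IDI1, INSIG1 and MVD), where 2.75% of all genes passed. Without 2A or without 3A, CYP51A1 was the gene that fell, and without 3A TM7SF2 rose, where 4.71% and 1.93% of all genes passed. The other regulators gave −0.18 ± 0.13 for SREBF1 (FDR = 0.551), −0.38 ± 0.13 for SREBF2 (FDR = 0.243), 0.07 ± 0.46 for SCAP (FDR = 0.96) and 0.02 ± 0.18 for INSIG2 (FDR = 0.976) in edgeR. SREBF2 gave 280, 281 and 270 CPM in the KO and 335, 426 and 317 CPM in WT A. With HCT116 WT B as the control, 26 genes were lower and 2 higher (FADS1 and SC5D), where 45.9% of all genes passed.

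Between the HCT116 WT sets, 1 of the 32 genes was higher in A and 1 lower, where 5.56% of all genes were higher and 6.71% lower. FADS1, the delta-5 desaturase, gave 121, 164 and 137 CPM in WT A and 45.6, 44.5 and 50.4 CPM in WT B (1.57 ± 0.14, FDR = 0.000279, edgeR). It was the 1 gene called with |log2(fold change)| > 1, where 3.16% of all genes were called higher and 3.9% lower. FEN1, which lies in the same locus, gave 87.8 to 143 CPM in WT A and 10.5 to 13.9 CPM in WT B. Whether reads were divided differently among the genes of that locus was not tested. ACACA, the acetyl-CoA carboxylase, was lower (−0.58 ± 0.17, FDR = 0.0876, edgeR), with 252, 400 and 306 CPM against 502, 428 and 485 CPM. That call was lost without 1A, 3A, S12, S13 or S14. Without 2A, 10 genes were lower in WT A and 1 higher, where 14.8% of all genes passed. The regulators SREBF1 (−0.15 ± 0.13, FDR = 0.552), SREBF2 (0.28 ± 0.14, FDR = 0.283), SCAP (−0.56 ± 0.43, FDR = 0.503), INSIG1 (0.10 ± 0.56, FDR = 0.942) and INSIG2 (−0.02 ± 0.18, FDR = 0.97) did not pass in edgeR. INSIG1 turned to −0.85 without 2A.

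The unedited lines differed in most of these genes. In A549 WT B against HCT116 WT B, 14 of the 32 were higher in A549 and 11 lower, where 31.2% of all genes were higher and 31.7% lower. With |log2(fold change)| > 1 as well, 6 were higher and 4 lower, where 17.2% and 18.5% of all genes were. FADS2 was the farthest apart, at 462, 460 and 490 CPM in A549 and 22.2, 19.4 and 20.3 CPM in HCT116 (4.77 ± 0.07, FDR = 3.71e-08, edgeR). ACLY gave 1306 to 1441 CPM in A549 against 507 to 530 CPM (1.66 ± 0.06, FDR = 4.94e-07, edgeR). LPIN1 gave 62.6 to 72.2 CPM against 30.9 to 33.8 CPM (1.34 ± 0.06, FDR = 1.2e-06, edgeR). FADS1 was higher by 1.73 ± 0.68 (FDR = 0.0617, edgeR) with A549 libraries from 22.3 to 199 CPM, so that the groups overlapped and the call was lost without S12, S13, S14, S20 or S21.

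Higher in HCT116 were TM7SF2 (−1.40 ± 0.08, FDR = 6.99e-06), FASN (−1.28 ± 0.07, FDR = 5.31e-06), STARD4 (−1.06 ± 0.06, FDR = 4.31e-06) and MVD (−1.03 ± 0.10, FDR = 7.96e-05), all by edgeR. FASN gave 1215, 1265 and 1286 CPM in A549 WT B and 3947, 3520 and 3516 CPM in HCT116 WT B. Of the regulators, SREBF2 (−0.78 ± 0.06, FDR = 1.85e-05), SCAP (−0.86 ± 0.20, FDR = 0.00719) and INSIG1 (−0.30 ± 0.06, FDR = 0.00271) were lower in A549 by edgeR, while SREBF1 (−0.13 ± 0.07, FDR = 0.121) and INSIG2 (0.14 ± 0.10, FDR = 0.276) did not pass. The arms were mixed. In the mevalonate arm 4 genes were higher in A549 and 1 lower, and in the sterol arm 6 were higher and 3 lower. Scaling by library totals alone moved the median of all genes to −0.28 and the split to 10 higher and 17 lower, where 64.1% of all genes passed. With HCT116 WT A in place of WT B, 5 were higher and 6 lower, where 55.1% of all genes passed.

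FADS1 and SCAP spread widely between libraries of several groups. FADS1 gave 161, 199 and 22.3 CPM in A549 WT B. In A549 MSTRG.2513.6 KO it gave 191, 104 and 33 CPM, and values of 12.3, 46.7 and 49.5 CPM were found in HCT116 MSTRG.4401.1 KO. It overlaps FADS2 on the opposite strand, and FADS2 spread far less within the same groups. FEN1, a nuclease gene, lies inside the FADS2 span of the GENCODE v44 annotation. It gave 3.2 to 4 CPM in A549 WT B and 10.5 to 13.9 CPM in HCT116 WT B. In HCT116 WT A it gave 87.8, 102 and 143 CPM, and in HCT116 MSTRG.34636.7 KO 74.8 to 83.9 CPM. Whether reads were divided differently among these genes was not tested. SCAP ranged from 23.2 to 84.4 CPM in HCT116 WT A and from 43.5 to 91.6 CPM in HCT116 MSTRG.34636.7 KO. Smaller spreads were found for IDI1 in A549 MSTRG.2513.6 KO, between 26.8 and 55.4 CPM, and in A549 MSTRG.4401.1 KO for SC5D, between 9.77 and 18.1 CPM, and for ACACA, at 200, 313 and 176 CPM. Whether strand was used in counting is not given in the sources used here, so genes with an antisense neighbour, among them MVK (beside MMAB), CYP51A1 (AKAP9), ACAT2 (TCP1) and SREBF1 (RAI1), and genes that share a strand, such as TM7SF2 with VPS51, carry the same uncertainty.

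Other genes around the pathway were counted in 5 lists. In A549 MSTRG.4401.1 KO, all 7 genes of SREBP processing and sterol-regulated degradation fell, led by ERLIN1 (−0.91) and the ubiquitin ligase RNF139 (−0.74), where 22.4% of all genes fell and 21.3% rose. Of the 7 genes of sterol trafficking and storage 6 fell. NPC2, which hands cholesterol over inside the lysosome, gave 64, 65.3 and 65.9 CPM in WT B and 23.4, 12.6 and 18.8 CPM in the KO (−1.91), and NPC1, its membrane partner, gave 142, 154 and 166 CPM and 64.8, 59.7 and 58.4 CPM (−1.41). Of the other fatty acid genes 7 of 9 fell, and of the isoprenoid branch genes 3 of 9.

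Of LXR and its targets, 2 of 5 fell and 1 rose in A549 MSTRG.4401.1 KO, where 22.4% of all genes fell and 21.3% rose. ABCA1, the sterol exporter, gave 70.3, 80 and 90 CPM in A549 WT B and 3.3, 3.5 and 4.0 CPM in the KO (−4.55 ± 0.14, FDR = 1.38e-06, edgeR), and ABCG1 fell by 0.85 on the log2 scale. In A549 MSTRG.2513.6 KO, 3 of the 5 rose and 0 fell, where 2.77% of all genes rose and 3.19% fell. ABCA1 gave 140, 156 and 142 CPM there (0.87 ± 0.10, FDR = 0.00435, edgeR), and ABCG1 gave 17.6, 23.2 and 22.4 CPM against 5.7, 4.9 and 6.2 CPM in WT B (1.90 ± 0.16, FDR = 0.0011, edgeR). In that comparison 1 of 7 trafficking genes rose, 1 of 9 isoprenoid genes fell, and 0 of the other 2 lists passed.

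In HCT116 MSTRG.4401.1 KO, 3 of the 5 LXR genes fell, where 8.72% of all genes fell and 7.57% rose. MYLIP, a ubiquitin ligase, stood at −0.93 and NR1H2, an LXR gene, at −0.62. The other lists had 6 of 9 fatty acid genes, 3 of 7 trafficking genes, 1 of 7 processing genes and 1 of 9 isoprenoid genes lower, and 0 higher. In HCT116 MSTRG.34636.7 KO, ABCA1 (0.83) was the gene of these lists that passed, where 1.18% of all genes rose and 0.972% fell. In HCT116 MSTRG.2513.6 KO as labelled it was ABCG1 (2.09), where 0.792% of all genes rose and 0.629% fell. ABCG1 gave 13.9 CPM in S11, 23.2 in S8 and 17.4 in S9 against 4.3 to 5.8 CPM in WT B.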

How the data were processed

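Total RNA of 24 libraries was depleted of rRNA, prepared with a NEBNext Ultra Directional kit and sequenced on a NovaSeq instrument. Per the submitters' processing notes, the authors used Trim Galore 0.6.6, FastQC 0.11.9 and HISAT2 2.2.1 on GRCh38. The deposited values are raw counts per gene symbol, as the authors made them; the annotation release, the strand setting and the step to whole counts are not given in the sources used here. Symbols absent from some libraries (3) were left out.

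Counts were divided by library totals for CPM. Each comparison was fitted on all genes with edgeR 4.0.16 in R 4.3.3 (TMM, filterByExpr, glmQLFit and glmQLFTest), with Benjamini-Hochberg FDR below 0.1, and called with |log2(fold change)| above 1. DESeq2 1.42.0 was an alternative. The code was tested on simulated data. Replicate pairs differed beyond sampling noise (chi-square per degree of freedom of at least 17.5). Alternatives were upper-quartile scaling, filters, other sets of libraries or controls, a replicate block and each library left out; library totals alone, and a fit without S8 and S9, were chosen after seeing the data. Per-kb levels and overlaps used GENCODE v44, and promoters RefSeq GRCh38.p14. Full statistics were given for up to 4 passing genes with the highest and up to 4 with the lowest log2(fold change), and for the 5 regulators; other genes were named from the 32 by counts and values. Members and lists were chosen with earlier results of these data known.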

Additional observations from a re-analysis of the deposited data

Results flagged for a closer look

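The effect of MSTRG.4401.1 DBD KO differed between A549 and HCT116 in 18 of the 32 genes by edgeR's interaction term, 16 more negative in A549 and 2 more negative in HCT116, where 15.4% and 11.6% of all genes differed in those directions. With upper-quartile normalization or library totals alone, 10 genes in place of 16 were more negative in A549. The difference of log2(fold change), A549 minus HCT116, was −1.03 for NSDHL, −1.02 for ACLY, −1.01 for SQLE, −0.78 for SC5D, −0.70 for EBP and −0.60 for HMGCS1. It was −0.58 for CYP51A1, −0.57 for LPIN1, −0.50 for ELOVL6, −0.46 for INSIG1, −0.44 for FDFT1 and −0.44 for MSMO1. It was −0.43 for FASN, −0.35 for MVK, −0.35 for LSS and −0.31 for FDPS, and 0.56 for SCD and 0.60 for TM7SF2. Without S10, S14 or S20, 10 genes in place of 16 were more negative in A549, where 21.3%, 20.6% and 23% of all genes passed in either direction. Beyond leaving out each library in turn, groups of 3 libraries were not tested for single outlying libraries.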

How the results depend on the processing

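Counts of the 32 genes that passed the FDR moved as follows. In A549 MSTRG.2513.6 KO, 2 became 1 at FDR 0.05, and 1 to 3 with a library left out. Over all genes, 5.97% passed in the main fit and 2.2% to 6.9% with a library left out. In A549 MSTRG.4401.1 KO, 23 became 15 with upper-quartile scaling and 17 to 22 with a library left out. Genes also past the fold went from 0 to between 0 and 2. The shares of all genes that passed were 43.7% in the main fit, 44.7% with upper-quartile scaling and 27.1% to 40.3% with a library left out. Past the fold they were 15.4%, 18.7% and 11.3% to 15.7%. In HCT116 MSTRG.2513.6 KO, 0 became 7 (DESeq2), 2 (library totals), 3 (at least 10 counts), 6 (1 fit of all HCT116 libraries), 21 (S11 alone) and 0 to 26 with a library left out; past the fold too, 0 became 4, 1 (at least 10 counts), 4 (1 fit), 3 (S11 alone) and 0 to 10. Of all genes in HCT116 MSTRG.2513.6 KO, 1.42% passed in the main fit and 18.6% by DESeq2. The share was 2.62% with library totals, 8.39% with at least 10 counts and 20.9% in 1 fit. With a library left out it ran from 0% to 62.6%. Past the fold the shares were 0.933% in the main fit, 10.5% by DESeq2 and 4.92% with at least 10 counts. They were 11.6% in 1 fit and 0% to 37.2% with a library left out. In HCT116 MSTRG.4401.1 KO, 15 became 0 in 1 fit of all HCT116 libraries and 1 without S8 and S9 in it. Against WT A it became 3, with 1 past the fold. Among all genes 16.3% passed in the main fit and 0.11%, 2.74% and 18.9% in those settings. Against WT A 10.2% of all genes were also past the fold. In HCT116 MSTRG.34636.7 KO, 0 became 4 (DESeq2), 1 (at least 10 counts), 5 (1 fit without S8 and S9) and 28 (against WT B). With a library left out it became 0 to 7. The shares of all genes in these settings were 6.68%, 2.82%, 8.11%, 45.9% and 0.265% to 4.71%. Past the fold, 0 became 1, 1 (that fit), 6 (WT B) and 0 to 5. Past the fold, 3.08% of all genes passed by DESeq2, 2.7% in that fit, 14.5% against WT B and 0.265% to 2.43% with a library left out. Between WT A and WT B, 2 became 1 at FDR 0.05, with upper-quartile scaling, library totals, no filter or 1 fit. With these last 4 settings 13.1%, 12.6%, 6.42% and 8.46% of all genes passed. It became 5 in the fit without S8 and S9 (17.7% of all genes) and 1 to 11 with a library left out (6.58% to 16%). Past the fold, 1 became 0 in 1 fit (5.37% of all genes) and 1 to 2 with a library left out (5.43% to 7.72%). Between the lines 25 became 11 with WT A, where 62.9% and 55.1% of all genes passed. Between the A549 KO groups, 1 past the fold became 0 with upper-quartile scaling or library totals and 0 to 2 with a library left out. There 16.6% of all genes were past the fold in the main fit. This became 19.5%, 18.4% and 12.4% to 20% in those settings. The causes were not tested.

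With the replicate block, 1 gene in place of 2 passed between WT A and WT B, where 9.84% of all genes passed, and INSIG1 turned from 0.10 to −0.32. The numbers did not pair the libraries (r for the same number from −0.163 to 0.081).

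Regulators that did not pass turned sign in places, and ranges are with 1 library left out. In A549 MSTRG.2513.6 KO, INSIG2 became 0.0118 (DESeq2), 0.0254 (upper quartile), 0.0225 (no filter) and 0.0374 (1 fit), range −0.0517 to 0.0790, and SCAP had a range of −0.462 to 0.301. In A549 MSTRG.4401.1 KO with upper-quartile scaling, SREBF2 became 0.0816 and INSIG2 0.0280. SREBF2 in HCT116 MSTRG.2513.6 KO became 0.284 with S11 alone. In HCT116 MSTRG.4401.1 KO, SCAP became 0.522 against WT A, range −0.332 to 0.329. In MSTRG.34636.7 KO, SCAP became −0.492 and INSIG2 −0.00297 against WT B, ranges −0.342 to 0.534 and −0.0899 to 0.212. Between WT A and WT B, INSIG1 ranged from −0.849 (without 2A) to 0.537, and INSIG2 became 0.0615 (upper quartile), range −0.218 to 0.0918. INSIG2 became −0.118 between the lines (library totals) and −0.00840 between the A549 KO groups (upper quartile). In the interaction, SREBF1 became 0.000402 (upper quartile), and SREBF2 −0.000284 (DESeq2) and −0.0451 (no filter), range −0.0285 to 0.0942. Over all 72 named values, 926 alternatives kept direction and call, 89 lost the call, 23 gained it and 34 turned sign. With 3 libraries a group, an exact permutation test cannot go below 0.1.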
